A study of Homo sapiens with 9 samples.

Results

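Cells expressing R273H p53 were compared with cells expressing G245S p53, a contact mutant with a structural mutant of the same protein, with no library of wild-type p53 in the comparison. The libraries were chosen by genotype, 6 of the 9 in the series, 3 biological replicates of each mutant. All genes that passed a count filter were described, 15614 of the 78986 listed. Both groups were stable HEK293T lines (the labels give the parent's name without the T), a human embryonic kidney line that carries the SV40 large T antigen, which binds p53. Each line was made by lentiviral infection and kept under puromycin, so that the groups share the parental cells, the viral delivery and the drug. The groups differ in the allele delivered and also in the line, since each allele has its own infected and selected line. The replicates of a mutant are harvests of the same line. Allele and line therefore cannot be told apart in this comparison. The methods describe selection of infected cells and no cloning step, so each line is a pool that overexpresses the mutant. The promoter driving p53 in these lines was not given in the sources used here.

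p53 binds DNA as a tetramer and activates genes that arrest the cell cycle, repair DNA and trigger apoptosis. The arginine replaced in R273H touches DNA, and its replacement removes a contact while leaving the fold of the domain largely in place. The glycine replaced in G245S lies in a loop that shapes the binding surface, and its replacement distorts that surface. The comparison asks whether these routes to a defective DNA-binding domain leave different transcriptomes.

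The libraries held between 7325514 and 9667306 counts. Values are CPM, counts scaled by TMM to a common library size, and a floor of 3 counts stood between 0.311 and 0.413 CPM. Pearson's r of log2 CPM across genes was 0.9902 to 0.9939 for libraries of 1 mutant and 0.9845 to 0.9931 for libraries of different mutants. The first principal component held 38.2% of the variance and had G245S replicate 1, the deepest library, at one end (−14.2) and R273H replicate 2, the shallowest, at the other (16.6). The other 4 libraries lay between −6.32 and 6.60, and the mutants did not separate along it. Of 14 genes typical of the HEK293 line, 9 were at 5 CPM or more in every library, among them VIM, CDH2 and NEFM. PAX8 was close to 0. In bulk samples, fewer cells of a type and less RNA per cell cannot be told apart.

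No gene passed an adjusted p of 0.05 in the quasi-likelihood test of edgeR, adjusted by Benjamini-Hochberg over all genes (0 of 15614, or 0%), and the lowest adjusted p was 0.579. At an unadjusted p under 0.05 there were 741 genes, 4.75% of those tested, with 357 higher in R273H (2.29%) and 384 lower (2.46%). DESeq2 called 1 gene, HSPA1B, and 274 at an unadjusted p under 0.05, while limma-voom called 0, with 733 unadjusted. With the replicate number as a block, edgeR called 59 genes. In 1428 genes, 9.15%, all 3 libraries of one mutant lay on the same side of all 3 of the other. The median log2 fold change over all genes was −0.0048, with 7543 genes higher and 8071 lower by sign. The median of the absolute log2 fold change was 0.0871. There were 78 genes with a fitted difference beyond 2-fold, and 7 of them had a mean of at least 5 CPM.

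The size of difference that each gene's data still allowed was read from the 95% interval of its log2 fold change. That interval lay wholly within 2-fold in either direction for 14315 genes (91.7%), within 1.5-fold for 11462 (73.4%) and within 1.25-fold for 6677 (42.8%). For the median gene, the bound of the interval farther from 0 was at 1.28-fold. An equivalence test against 2-fold, with Benjamini-Hochberg adjustment over all genes in the edgeR fit, passed for 14712 genes (94.2%), and the same test against 1.5-fold passed for 11916 (76.3%). With intervals widened to hold over all genes at once (Bonferroni), 8132 genes (52.1%) were still within 2-fold and 748 (4.79%) within 1.5-fold.

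**Figure D1:**
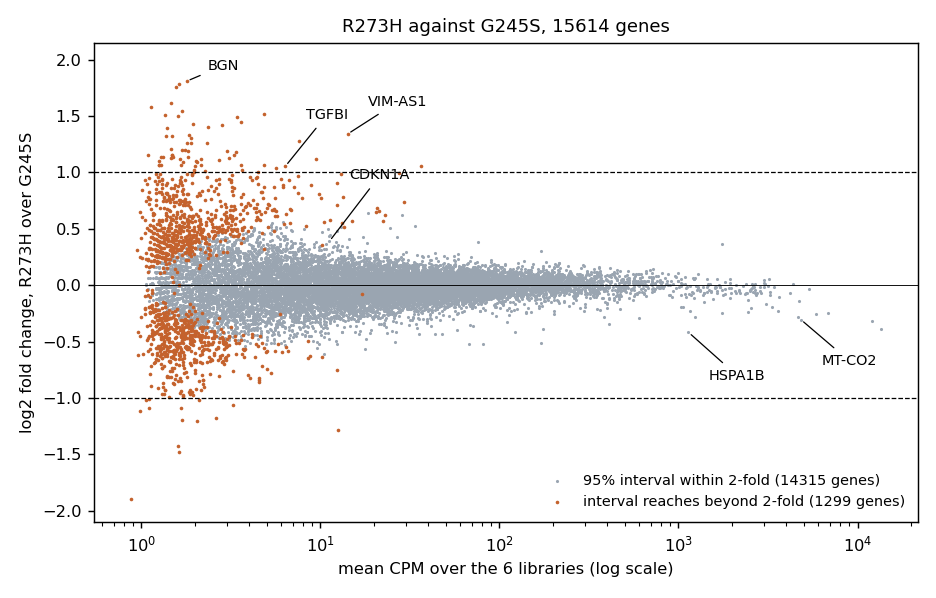
Each point is 1 of the 15614 genes tested, with its mean CPM over the 6 libraries on a log axis and its log2 fold change of R273H over G245S on the vertical axis; dashed lines mark 2-fold. The 1299 genes whose 95% interval reaches beyond 2-fold lie mostly at the low end, with a median mean of 1.68 CPM against 20.8 CPM for the other 14315.

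How narrow the limits were depended on the level of the gene. Of the 3942 genes with a mean of 1 to 5 CPM, 69.1% were within 2-fold and 12.6% within 1.5-fold, and their median bound was 1.79-fold. Of the 4342 genes at 5 to 20 CPM, 98.6% were within 2-fold and 85.3% within 1.5-fold. At 20 to 100 CPM the median bound of 5414 genes was 1.20-fold, and 99.3% were within 1.5-fold. All 1641 genes at 100 to 500 CPM and all 265 at 500 CPM or more were within 2-fold. The limits did not tighten further in that highest range, where the median bound was 1.18-fold against 1.17-fold just below it. A difference beyond 4-fold remained inside the interval of 52 genes (0.333%).

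**Figure D2:**
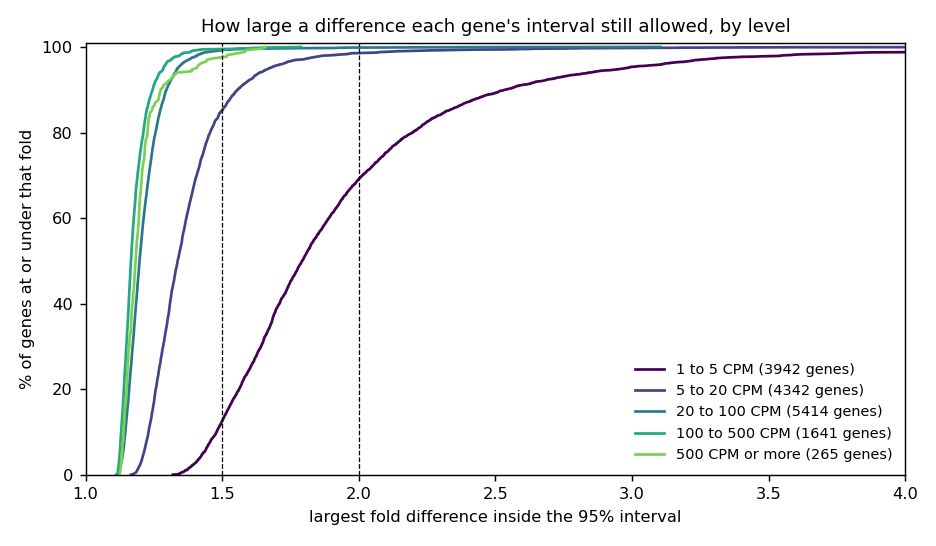
For genes grouped by mean CPM, each line gives the percentage of genes (vertical axis) whose 95% interval contains no difference larger than the fold on the horizontal axis; dashed lines mark 1.5-fold and 2-fold, and the 10 genes under 1 CPM are left out. At 2-fold the line for 1 to 5 CPM stands at 69.1% and that for 5 to 20 CPM at 98.6%.

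The 5 genes bounded most tightly were NUS1, a subunit of the enzyme that makes dolichol, NSD2, a histone H3 lysine 36 methyltransferase, UTP6, a factor in ribosomal RNA processing, and the RNA-binding proteins TIAL1 and RBMX. Their intervals held nothing beyond 1.11-fold to 1.12-fold. RBMX, for example, was at 329, 334 and 331 CPM in G245S and at 335, 323 and 336 CPM in R273H. Among genes with a symbol and a mean of at least 20 CPM, the widest intervals belonged to TMA7B, TALAM1, COL1A2, RPL10P3 and PTN. TMA7B stood at 18.2, 45.8 and 9.56 CPM in G245S and at 11.8, 42.3 and 20.1 CPM in R273H, so that its libraries spread alike in both mutants and its bound was at 1.90-fold. RPL10P3 is a processed pseudogene of a ribosomal protein gene, and reads shared with its parent make its values uncertain.

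A list of p53 target genes, written from general knowledge, was set beside all genes tested. Of 80 listed targets 70 were tested, and 0 passed the adjusted threshold in edgeR's quasi-likelihood test. An unadjusted p under 0.05 was reached by 2, both higher in R273H, where 4.75% of all genes tested reached it. The list split into 33 genes higher and 37 lower by sign, with a median log2 fold change of −0.0020 against −0.0048 over all genes tested. The intervals of 69 of the 70 lay within 2-fold and those of 58 within 1.5-fold. Over all genes tested these shares were 91.7% and 73.4%, and they stand beside each list below. Both shares depend on the level of the genes, as given above, and the lists were not matched for level. The exception at 2-fold was TNFRSF13C, a receptor for the B-cell factor BAFF, at a mean of 2.94 CPM.

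CDKN1A, which encodes the p21 inhibitor of cyclin-dependent kinases (chromosome 6, 36676460 to 36687397), was at 7.45, 10.2 and 11.5 CPM in G245S and at 11.9, 14.3 and 11.8 CPM in R273H. Every R273H library was above every G245S library, with a gap of under 1 CPM between the nearest pair. Its log2 fold change was 0.39 (standard error 0.16, 95% interval 0.05 to 0.73), with an unadjusted p of 0.0279 and an adjusted p of 0.994 in edgeR's quasi-likelihood test. Without both libraries at the ends of the first component, a choice made after seeing the data, the log2 fold change of CDKN1A was 0.12. BCL2L1, which encodes the survival factor BCL-XL, was at 11.5, 13.0 and 10.4 CPM in G245S and at 14.8, 14.5 and 15.1 CPM in R273H. Its groups did not overlap either, and its log2 fold change was 0.35 (unadjusted p = 0.0111, adjusted p = 0.948, edgeR).

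In the feedback arm, MDM2, the ubiquitin ligase that degrades p53, was at 47.8, 44.3 and 47.7 CPM in G245S and at 42.1, 46.6 and 43.4 CPM in R273H. The groups overlapped, and the 95% interval of the log2 fold change ran from −0.26 to 0.09. All 10 feedback targets were tested, and their fold changes lay between −0.09 and 0.14 on the log2 scale, the highest being PHLDA3, which restrains AKT. MDM4, the partner of MDM2, had a log2 fold change of −0.14 (95% interval −0.39 to 0.11).

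The apoptosis gene BBC3, which encodes PUMA, was at 24.2, 22.6 and 25.3 CPM in G245S and at 24.5, 23.4 and 27.1 CPM in R273H, and its interval lay between −0.15 and 0.27. FDXR, a mitochondrial reductase induced by p53, had an interval from −0.33 to 0.27. DDB2, which recognises ultraviolet damage in DNA, was at 9.73, 9.46 and 10.6 CPM in G245S and at 7.41, 9.37 and 8.70 CPM in R273H, without overlap. Its log2 fold change was −0.23 (95% interval −0.53 to 0.07, unadjusted p = 0.126, edgeR). The lncRNA PURPL, a p53 target outside the list and named after its values were seen, was at 36.6, 24.5 and 30.3 CPM in G245S and at 23.8, 21.4 and 19.7 CPM in R273H. It was lower in every R273H library than in any G245S library, with an unadjusted p of 0.00174 and an adjusted p of 0.921 (edgeR).

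**Figure D3:**
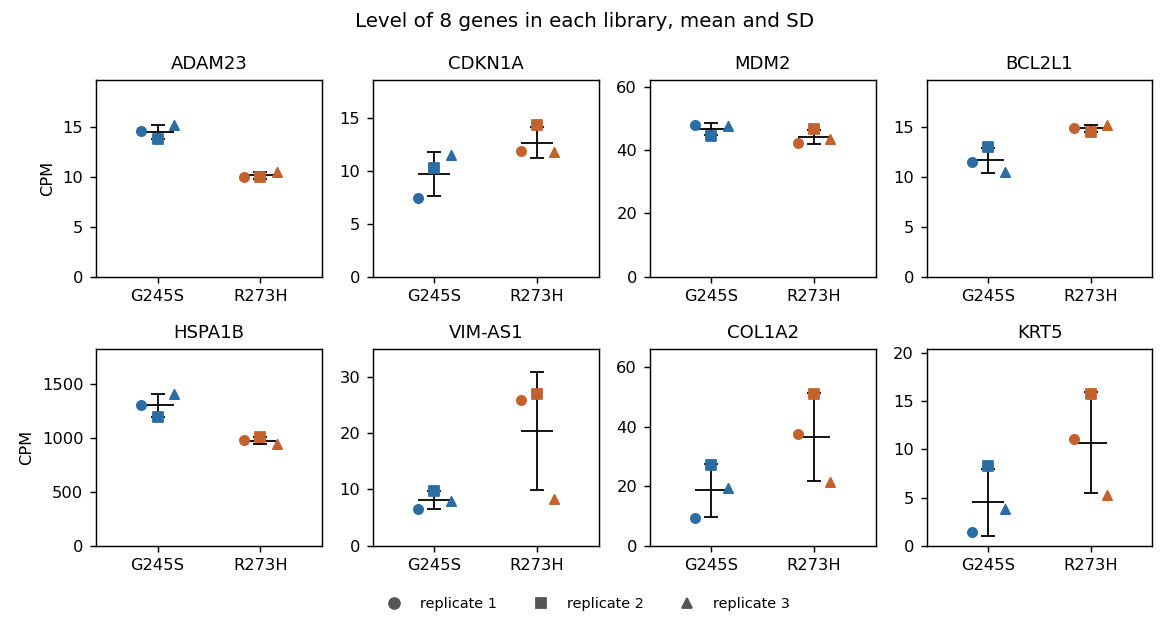
CPM (vertical axes, from 0) of 8 genes in each of the 6 libraries, with circles, squares and triangles for replicates 1, 2 and 3 and a bar for the mean with its SD (n = 3). ADAM23, HSPA1B, CDKN1A and BCL2L1 separate the mutants without overlap, while VIM-AS1, COL1A2 and KRT5 overlap because R273H replicate 3 lies near the G245S libraries.

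Of 23 p53 family members and regulators tested, 0 had an unadjusted p under 0.05, against 4.75% of all genes tested. All 23 were within 1.5-fold. TP73, the p53 relative, was at 6.74 to 7.66 CPM in G245S and at 6.89 to 9.30 CPM in R273H. TP63 had too few counts to be tested. HIPK2, a kinase that phosphorylates p53, had the lowest p of the list, 0.0559 unadjusted, at a log2 fold change of −0.22.

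Chaperones bind mutant p53 and keep it from being degraded, and structural mutants depend on them for folding. HSPA1B, a stress-induced HSP70 (chromosome 6, 31827738 to 31830254), had the lowest p among genes with a symbol and a mean of 5 CPM or more. It was at 1304, 1194 and 1403 CPM in G245S and at 978, 1006 and 938 CPM in R273H. All R273H libraries lay below all G245S libraries. The log2 fold change was −0.42 (standard error 0.09, 95% interval −0.60 to −0.23), with an unadjusted p of 0.000241 and an adjusted p of 0.921 in edgeR's quasi-likelihood test. Its adjusted p was 0.00369 in DESeq2 and 3e-04 in edgeR with the replicate number as a block. HSPA1B kept its sign without any 1 library, between −0.47 and −0.35.

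HSPA1A, whose sequence is nearly identical to that of HSPA1B, was at only 4.84 to 7.17 CPM, and reads that fit both genes were shared as fractions, so the split between them is uncertain. Of the other chaperones, HSP90AB1, the constitutive HSP90, had a log2 fold change of −0.07 (95% interval −0.26 to 0.13), and HSPA8, the constitutive HSP70, 0.08 (95% interval −0.10 to 0.25). CRYAB, a small heat shock protein, was the other chaperone with an unadjusted p under 0.05, higher in R273H by 0.70 on the log2 scale at a mean of 3.15 CPM. The list of 38 thus had 1 gene higher and 1 lower at that threshold, where 4.75% of all genes tested reached it. Over the 38 chaperones the median log2 fold change was −0.0044, and 37 were within 2-fold. All 32 proteasome genes were within 1.5-fold, with a median of 0.03.

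Among genes with a symbol, at a mean of 5 CPM or more and higher in R273H, those with the lowest p were VIM-AS1, TUBA4A, TGFBI, S100A6 and COL6A2. VIM-AS1, an antisense RNA that starts near the vimentin gene, was at 6.52, 9.72 and 7.94 CPM in G245S and at 25.9, 26.9 and 8.22 CPM in R273H. Replicates 1 and 2 of R273H stood far above the rest, and replicate 3 fell among the G245S values. Its log2 fold change was 1.34 (95% interval 0.65 to 2.03, adjusted p = 0.921, edgeR), and without R273H replicate 3 it was 1.72 with an adjusted p of 0.000595. VIM, counted on the opposite strand, lay between 470 and 542 CPM in all 6 libraries, with an interval from −0.18 to 0.17.

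TGFBI, a matrix protein induced by TGF-beta, was at 2.69, 5.32 and 4.47 CPM in G245S and at 6.71, 12.3 and 6.79 CPM in R273H. The calcium-binding protein S100A6 was at 15.4, 24.5 and 26.6 CPM in G245S and at 37.8, 46.0 and 26.6 CPM in R273H. The groups of S100A6 all but touched, since its lowest R273H library was level with its highest G245S library. In both genes R273H replicate 2 was the highest library and G245S replicate 1 the lowest. Their log2 fold changes were 1.05 and 0.74, and without both of those libraries they were 0.47 and 0.34. COL6A2, a subunit of collagen VI, was at 9.11, 8.69 and 9.56 CPM in G245S and at 14.2, 11.99 and 12.3 CPM in R273H, and its log2 fold change of 0.50 was 0.54 without those libraries. TUBA4A, an alpha-tubulin, had a log2 fold change of 0.64, and 0.31 without them. ENSG00000294255, a lncRNA of chromosome 9 with no symbol, which the naming rule passes over, was at 17.8, 32.7 and 20.7 CPM in G245S and at 42.2, 68.5 and 36.9 CPM in R273H, without overlap and with an unadjusted p of 0.000191 (adjusted p = 0.921, edgeR).

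THBS1 (thrombospondin 1) and CD44 (the hyaluronan receptor) were among the 5 largest differences without overlap, at 0.88 and 0.77 on the log2 scale, and dropped to 0.26 and 0.47 without those libraries. COL1A2, a chain of collagen I and a marker of fibroblasts, was at 9.21, 27.1 and 19.5 CPM in G245S and at 37.6, 50.9 and 21.3 CPM in R273H, with overlap. Its partner COL1A1 was at 12.8, 21.8 and 19.99 CPM and at 25.7, 37.2 and 21.0 CPM. These 2 chains of collagen I were the 2 of the 6 tested markers of other cell types with an unadjusted p under 0.05. Both were higher in R273H, where 2.29% of all genes tested were. The full list of 20 such markers summed to 38.9, 64.7 and 57.5 CPM in G245S and to 82.4, 105 and 60.2 CPM in R273H. Of the 20, 14 were under 1 CPM in every library, and CD3E, PECAM1, SLC34A1, UMOD and AQP2 had no count.

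Keratins of basal squamous epithelium, looked at after their values were seen, had the same highest and lowest libraries. KRT5 was at 1.45, 8.30 and 3.85 CPM in G245S and at 11.1, 15.7 and 5.24 CPM in R273H. KRT5, KRT6A, KRT14 and KRT17 together summed to 10.8, 38.5 and 20.5 CPM in G245S and to 42.8, 66.7 and 26.9 CPM in R273H. G245S replicate 2 thus lay above R273H replicate 3, and the groups overlapped. KRT8 and KRT18, the simple-epithelium keratins of this line, had other libraries highest, and KRT18 stood at 59.1 to 64.6 CPM in G245S and 67.5 to 69.0 CPM in R273H. The part that RNA of other cells, or the depth of the libraries, has in the differences of these matrix and keratin genes was not tested.

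**Figure D4:**
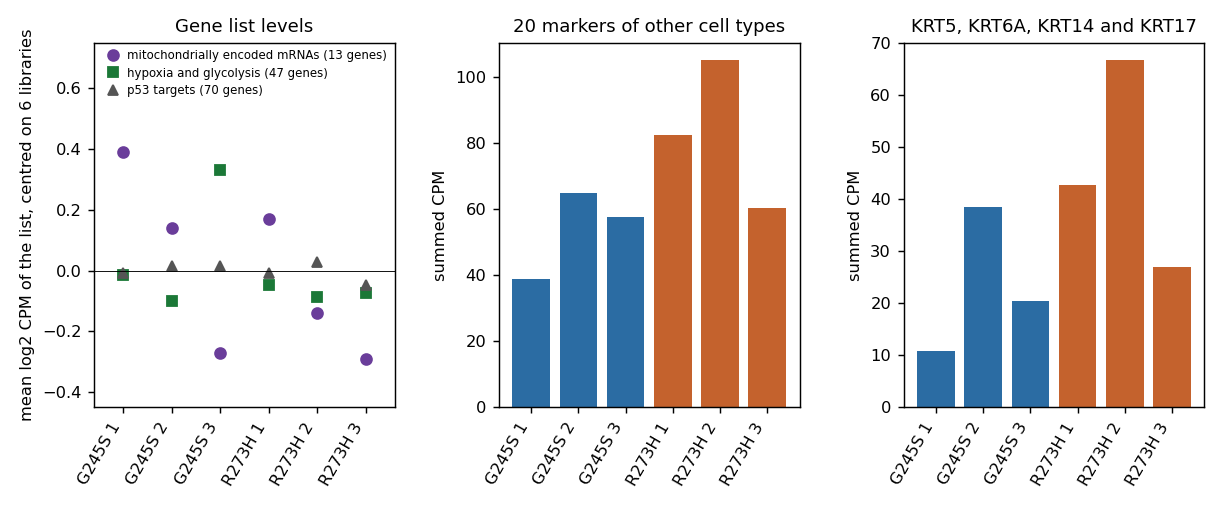
Left, the mean log2 CPM of 3 gene lists in each library, centred on the 6 libraries; middle and right, CPM summed over 20 markers of other cell types and over 4 basal keratins, with G245S in blue and R273H in orange. The hypoxia list stands out in G245S replicate 3 at 0.33, and both sums are highest in R273H replicate 2 (105 and 66.7 CPM) and lowest in G245S replicate 1 (38.9 and 10.8 CPM). Most of each marker sum is COL1A1 and COL1A2.

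The same pair of libraries held the extremes of many of the genes past an unadjusted p of 0.05. In the 357 genes higher in R273H the highest library was an R273H library by their choice, and it was replicate 2 in 236 (66.1%). Over all genes tested whose highest library was of R273H, it was replicate 2 in 44.4%. G245S replicate 1 was the lowest library in 225 of the 357, or 63.2% of those with their lowest value in G245S, where the share over all genes was 36.3%. Among the 384 genes lower in R273H, G245S replicate 1 was the highest in 206 (53.6%) and G245S replicate 3 in 138 (35.9%), against 39.0% and 33.2% of all genes with their highest value in G245S. These shares are descriptions, without a test. Without both libraries at the ends of the component, 0 genes passed the adjusted threshold in edgeR, 579 had an unadjusted p under 0.05, and 13691 were within 2-fold.

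Among genes lower in R273H at a mean of 5 CPM or more, the lowest p after HSPA1B belonged to ADAM23, BMS1P1, MIR17HG and KCNC1. ADAM23, a cell-adhesion protein of neural tissue, was at 14.6, 13.7 and 15.1 CPM in G245S and at 9.95, 9.92 and 10.5 CPM in R273H. Both groups were tight and did not overlap, with a log2 fold change of −0.52 (standard error 0.12, unadjusted p = 0.000551, adjusted p = 0.921, edgeR). MIR17HG, the host transcript of the miR-17-92 cluster on chromosome 13, was at 85.8, 71.8 and 72.5 CPM in G245S and at 63.5, 62.0 and 55.5 CPM in R273H. Its log2 fold change was −0.35, again without overlap. KCNC1, a voltage-gated potassium channel, was the largest decrease of this kind at −0.78, and GPR137C and CLIP4 were at −0.53 and −0.52. BMS1P1 is a pseudogene, at −0.61, and can share reads with its parent gene.

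The proteins that the study placed near mutant p53 were described through their own transcripts. COX7C, a subunit of complex IV, was at 649, 757 and 702 CPM in G245S and at 674, 728 and 726 CPM in R273H, and its bound was at 1.14-fold. TOMM70, a receptor of the mitochondrial outer membrane, and AKAP1, an anchor for RNA and kinases on that membrane, were bounded at 1.13-fold and 1.17-fold. TUT4, which adds uridine to small RNAs, was bounded at 1.16-fold, and ZC3H7B, a binding protein of miRNA precursors, at 1.29-fold. KMT2A, a histone H3 lysine 4 methyltransferase, had a log2 fold change of −0.18.

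Of the 31 tested genes that earlier work links to mutant p53, KMT2D alone had an unadjusted p under 0.05, against 4.75% of all genes tested. KMT2D, a relative of KMT2A, had a log2 fold change of −0.23 and was at 64.6, 59.3 and 59.5 CPM in G245S and at 53.2, 55.1 and 48.4 CPM in R273H, without overlap (unadjusted p = 0.0125, adjusted p = 0.951, edgeR). The median log2 fold change of the list was 0.0070, and 29 were within 2-fold. The other 2 were AXL and NRG1, both at a mean under 2 CPM. Of 33 genes that handle miRNA and double-stranded RNA, LIN28A and STAU2 had an unadjusted p under 0.05, against 4.75% of all genes tested. LIN28A, which blocks let-7 maturation, was at 1.24, 1.82 and 0.993 CPM in G245S and at 3.01, 4.69 and 1.19 CPM in R273H. The groups overlapped, and its interval ran from 0.20 to 2.03 on the log2 scale, so that a 4-fold difference was still allowed.

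The 13 mRNAs of the mitochondrial genome were lower in R273H by sign in 12, where 8071 of all 15614 genes tested were. Their median log2 fold change was −0.22, and all 13 were within 2-fold. MT-CO2, a core subunit of complex IV, and MT-ND4, of complex I, had unadjusted p values of 0.0446 and 0.0448 in edgeR. Both were lower, where 2.46% of all genes tested were lower at an unadjusted p under 0.05. The level of the list, centred on the 6 libraries, was 0.39, 0.14 and −0.27 in G245S and 0.17, −0.14 and −0.29 in R273H on the log2 scale. The groups overlapped, and the spread within each mutant was larger than the difference between their means. Each R273H library was below the G245S library of the same number, by little in replicate 3. With the replicate number as a block, 7 of the 13 passed the adjusted threshold in edgeR, all lower in R273H. That fit called 26 of all 15614 genes tested lower. Without G245S replicate 1 the median log2 fold change was −0.09, and without R273H replicate 1 it was −0.37. The share of all counts on the mitochondrial genome was between 5.55% and 8.34% in G245S and between 4.83% and 6.86% in R273H.

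The nuclear genes of the same complexes were close to equal. Of 76 tested, 0 had an unadjusted p under 0.05 in edgeR's quasi-likelihood test, against 4.75% of all genes tested. All 76 were within 1.5-fold, and 53 were higher by sign, with a median log2 fold change of 0.03. Of 77 mitochondrial ribosome genes, 60 were higher by sign with a median of 0.05, and 0 had an unadjusted p under 0.05. Of 80 cytosolic ribosome genes, 65 were lower by sign with a median of −0.04, likewise with 0. Without both libraries at the ends of the first component, the medians turned to −0.07 for the nuclear complexes and −0.02 for the mitochondrial ribosome. That of the cytosolic ribosome was then −0.14, with all 80 genes lower by sign, but it was 0.0036 without G245S replicate 2 and 0.0065 without R273H replicate 1. CHCHD4, an import factor of the intermembrane space, was the one gene of 34 in mitochondrial import with an unadjusted p under 0.05. Over all genes tested the share was 4.75%. CHCHD4 was at 51.8, 53.4 and 53.6 CPM in G245S and at 59.7, 59.3 and 60.7 CPM in R273H, a small and tight difference of 0.18 on the log2 scale (adjusted p = 0.994, edgeR).

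Genes of hypoxia and glycolysis were lower in R273H by sign in 37 of 47, with a median log2 fold change of −0.11. Of the 47, 7 had an unadjusted p under 0.05 and were lower, where 2.46% of all genes tested were: NDRG1, BNIP3, DDIT4, P4HA1, STC2, HK2 and PDK1. P4HA1, which hydroxylates collagen, was at 44.4, 40.7 and 54.5 CPM in G245S and at 38.7, 35.3 and 34.7 CPM in R273H. PDK1, the kinase that restrains pyruvate dehydrogenase, was at 19.8, 14.4 and 29.0 CPM in G245S and at 13.8, 13.1 and 15.7 CPM in R273H. G245S replicate 3 was the highest library in each, and the level of the whole list was 0.33 there against −0.10 to −0.015 in the other 5 libraries. Without that library the list's median log2 fold change was −0.0087 and that of P4HA1 was −0.23.

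**Figure D5:**
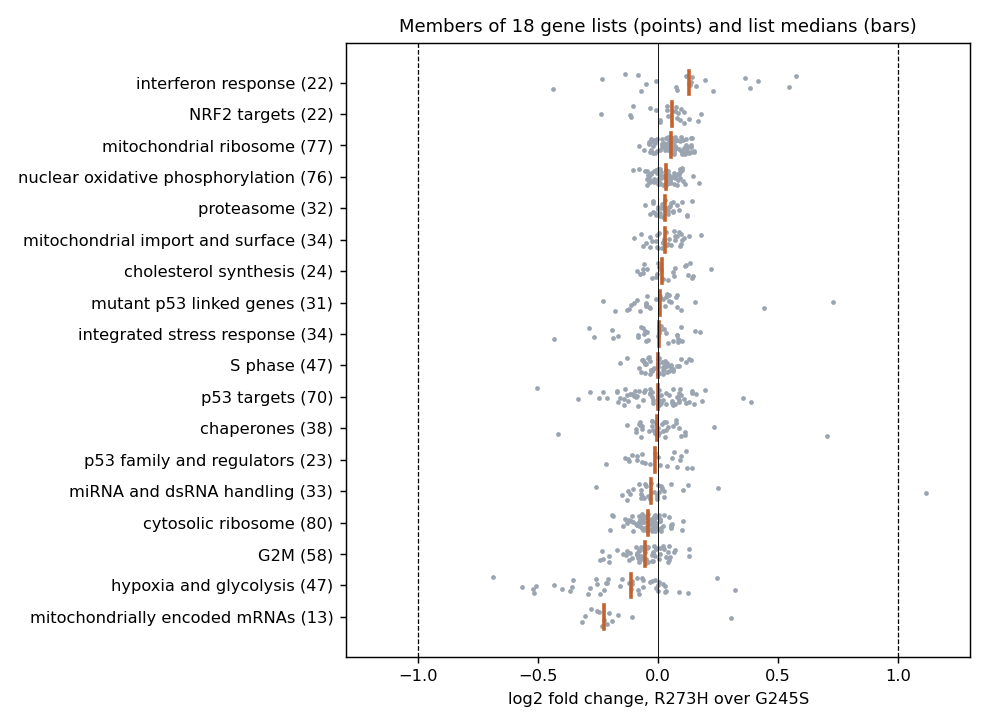
Each grey point is the log2 fold change of R273H over G245S (horizontal axis) of 1 gene of a list, orange bars are list medians, the number of genes tested is in parentheses and dashed lines mark 2-fold. Both marker lists are left out; the other medians lie between −0.22 for the mitochondrially encoded mRNAs and 0.13 for the interferon response, and 1 point, LIN28A, lies beyond 2-fold.

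All 47 S-phase genes driven by E2F were within 1.5-fold, with a median log2 fold change of 0.00099. The share within 1.5-fold was 73.4% over all genes tested and 99.3% over those at 20 to 100 CPM. An unadjusted p under 0.05 was reached by 0 of the 47, against 4.75% of all genes tested. Of 58 genes of G2 and mitosis, 43 were lower by sign with a median of −0.05. UBE2C, INCENP and MKI67 had an unadjusted p under 0.05 and were lower, where 2.46% of all genes tested were. UBE2C, the ubiquitin carrier of the anaphase-promoting complex, was at 408, 427 and 439 CPM in G245S and at 342, 371 and 392 CPM in R273H, and its groups did not overlap. Without G245S replicate 3 the median of the list was −0.01.

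Of 34 targets of ATF4 in the integrated stress response, STC2, SLC3A2 and PCK2 had an unadjusted p under 0.05. All were lower in R273H, where 2.46% of all genes tested were, and the list's median was 0.0039. STC2, also in the hypoxia list, was at 65.2 CPM in G245S replicate 3 and between 35.8 and 49.0 CPM in the other 5 libraries. The 24 genes of cholesterol synthesis and the 22 antioxidant targets of NRF2 were all within 1.5-fold. Both lists had 0 genes at an unadjusted p under 0.05, against 4.75% of all genes tested. Apart from the markers of other cell types, the interferon response was the list least tightly bounded: of 42 genes 22 were tested, 17 were within 2-fold and 11 within 1.5-fold. IFITM3, a membrane protein that blocks virus entry, had the lowest p there, 0.0354 unadjusted, at a log2 fold change of 0.55 that was 0.12 without both libraries at the ends of the component.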

How the data were processed

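RNA from 3 biological replicates of each line was sequenced. Per the labels and the study's methods, the authors filtered reads with fastp 0.24.0, aligned them to GRCh38 with STAR 2.7.11, collapsed duplicates that shared a molecular identifier and ran featureCounts (Subread 2.1.1) over exons and 3′ UTRs, by strand, with multi-mapping reads shared as fractions. The deposited values are not normalized and not all whole, so they are expected counts, rounded here. The 9 deposited CPM columns were not used here.

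The 6 libraries were filtered with filterByExpr, scaled with TMM and fitted in edgeR 4.0.16 (R 4.3.3) with its quasi-likelihood test, with Benjamini-Hochberg adjustment over 15614 genes and a threshold of 0.05. Total degrees of freedom were 15.1. Intervals are the log2 fold change plus or minus the t quantile times its standard error. The scripts were tested on simulated data. DESeq2 1.42.0, limma 3.58.1, other scalings and filters, left-out libraries, a replicate term and a fit of all 9 libraries were alternatives. Figures used Python 3.11.15 and matplotlib 3.10.9. Gene coordinates are those of the deposited table.

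Named genes were 20 fixed ones, the 5 lowest p in each direction at a mean of 5 CPM or more, the 5 largest differences without overlap in each direction, the 5 tightest bounds, the 5 widest intervals at a mean of 20 CPM or more and the lowest p in each list. A planned result is left out of the text. The members and the 20 lists were chosen with earlier results of these data known. Genes chosen outside that rule, once values were known, were TNFRSF13C, PURPL, CRYAB, COL1A1, KRT5, KRT6A, KRT14, KRT17, VIM, KRT8, AXL, NRG1, NEAT1, HOXA5, BGN, BEST1, PTPRZ1, ENSG00000294255 and the remaining list members with an unadjusted p under 0.05. Replicates are separate harvests of 1 line each, so p-values cover the spread between harvests. Floors of 3 counts cover counting error only.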

Additional observations from a re-analysis of the deposited data

How the results depend on the processing

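The count of genes within 2-fold stayed within 1.5 times 14315 under every alternative run, from 11593 (mean of at least 5 CPM, 99.4% of 11662) to 14972 (no filter, 41.4% of 36147); without 1 library it was 13669 to 14031, with 99% intervals 13062 and in DESeq2 13308. The count of genes past the adjusted threshold was 0 with robust fitting, the newer quasi-likelihood method, every scaling, the stricter filter, protein-coding genes only, all 9 libraries, counts not rounded and limma-voom. It was 1 in DESeq2 and 0 to 3 without 1 library: without G245S replicate 2 the 3 were PTPRZ1, NEAT1 and ENSG00000294255, and without R273H replicate 3 the 1 was VIM-AS1. With no filter on low counts it was 125, in a fit whose prior degrees of freedom were infinite, so that 1 spread was shared by all genes of a level; the newer method gave 4 there. Replicate numbers are shared by the mutants but not stated to pair them, so they were not taken as pairs. Deviations of same-numbered libraries correlated at 0.24, 0.38 and −0.0044, and those of different-numbered libraries at −0.34 to 0.17. Replicates 1 and 2 of both mutants correlated best with their own number, while G245S replicate 3 and R273H replicate 3 did not. These values do not settle whether the replicates are paired. A replicate block gave 59 genes, 33 higher and 26 lower, with 1312 at an unadjusted p under 0.05; 7 of the 13 mitochondrially encoded mRNAs were among the 26 (adjusted p from 0.00125 to 0.0212, edgeR). The installed edgeR uses the older quasi-likelihood method by default, so the planned run of that method was the fit reported; the newer method and the fit without both libraries at the ends of the first component were chosen after seeing the data. Scalings moved the median of all genes to between −0.0009 and 0.02.

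Signs near 0 turned in some fits. Without 1 library, log2 fold changes ran from −0.029 to 0.20 for TP73, −0.23 to 0.0092 for MDM4, −0.0028 to 0.10 for BBC3, −0.12 to 0.10 for FDXR, −0.041 to 0.070 for COX7C, −0.09 to 0.13 for TUT4, −0.11 to 0.060 for AKAP1 and −0.017 to 0.067 for TOMM70. Without both libraries at the ends of the component, COX7C was at −0.060, TUT4 at 0.12 and PSMD13 at −0.0076. TUT4 was also at 0.0019 in DESeq2, 0.0049 with upper-quartile scaling and 0.019 with library size only. The causes of these changes were not tested.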

Other observations

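Gene classes differed in the share of genes within narrow limits. Of 12610 protein-coding genes 95.7% were within 2-fold and 3.78% had an unadjusted p under 0.05, at a median mean of 24.1 CPM. Of 2094 lncRNAs 77.2% were within 2-fold and 8.02% had an unadjusted p under 0.05, at a median mean of 3.24 CPM. Of 572 processed pseudogenes, which can share reads with their parents, these shares were 67.5% and 12.8%.

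BGN and BEST1 had the lowest p of all genes, below the mean of 5 CPM that the naming rule asks for. BGN, which encodes the matrix proteoglycan biglycan, was at 0.518, 1.04 and 0.869 CPM in G245S and at 2.199, 3.03 and 3.10 CPM in R273H. BEST1, a chloride channel, was at 1.66, 2.33 and 1.86 CPM in G245S and at 6.48, 5.79 and 3.58 CPM in R273H. Neither gene's groups overlapped, and the adjusted p of both was 0.579 (edgeR, Benjamini-Hochberg). HOXA5, a homeobox factor, was at 162, 125 and 129 CPM in G245S and at 113, 89.6 and 110 CPM in R273H, without overlap. NEAT1, the scaffold of paraspeckles, was at 238, 141 and 220 CPM in G245S and at 162, 117 and 142 CPM in R273H, and its groups overlapped.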
